A study of Mus musculus with 199 samples.

Results

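Proteinase K was tested at 3 titled volumes, 3, 4 and 8 µl, in 21 multiplex genome architecture mapping (GAM) libraries, 7 per volume. They were chosen by their titles, which place them in the proteinase K titration and mark them mdc and 4NP, out of 199 libraries in the deposited table. The labels do not spell out mdc. All 21 came from 46C cells, a mouse embryonic stem cell line of strain 129/Ola that carries a Sox1-GFP reporter, grown with leukaemia inhibitory factor before a final passage in serum-free medium. Each library was made from 1 cap that held 4 nuclear profiles (4NP) cut from 220 nm cryosections. In the protocols, the titled volumes correspond to 0.3, 0.4 and 0.8 µl of the enzyme in a 14.5 µl lysis mix with 1.4 µl of lysis buffer, balanced by 12.8, 12.7 and 12.3 µl of water. Lysis lasted 4 h at 50 °C at every volume and amplification used 25 PCR cycles.

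In GAM, a thin slice through a nucleus carries DNA from the stretches of chromosome that it happened to cross, and loci that lie close together in space tend to be found in the same slices. Neighbouring positions on a chromosome are therefore usually caught together, and a well amplified slice gives unbroken runs of detected windows. The cells are fixed, so the DNA is held by crosslinked protein. Proteinase K, a broad serine protease, digests that protein and frees the DNA for whole genome amplification. The titration asked how much of the enzyme the lysis step should receive.

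The measurement was a call for each 40 kb window of the mm9 genome, positive at 4 reads or more. The calls hold no read depth, so a library with few calls may have held little DNA or received few reads, and these cannot be told apart. All libraries of the table had failed quality control. The volumes are thus compared among failed libraries, and libraries of this titration that passed are not analysed here. Each volume filled its own plate column, so column and volume cannot be told apart, while the 7 replicates of each volume lay in plate rows A to G. Nothing in the labels says that the caps came from separate cultures, so the p-values measure the spread between these caps. No water control carried the title of this titration. Across the other experiments there were 11 water controls with a median genome coverage of 0.109%. In 9 of them coverage lay between 0.0530% and 0.476%, and the other 2 had 21.4% and 21%.

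Trends over the ordered volumes were tested with the exact two-sided Jonckheere-Terpstra permutation test. Its result is given as the percent of library pairs from different volumes in which the library with the larger volume had the higher value, 50% being no trend. Benjamini-Hochberg adjustment ran over the 10 trend tests, with 0.05 as the threshold. Before adjustment 1 of the 10 had p below 0.05, and after it 0 did.

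Genome coverage, the percent of the 65983 windows of chromosomes 1 to 19 and X called in a library, differed more between caps of 1 volume than between volumes. At 3 µl the 7 libraries had 0.371%, 15.7%, 11.2%, 6.04%, 16.1%, 17.5% and 8.88%, in the order of plate rows A to G. At 4 µl they had 2.85%, 12.7%, 11.8%, 16.3%, 12.7%, 9.87% and 6.63%. At 8 µl the values were 0.164%, 0.00303%, 18.6%, 2.67%, 4.26%, 4.21% and 9.0%. The highest library of the titration and the 2 lowest were all at 8 µl, and the groups overlapped along most of their range. Medians were 11.2%, 11.8% and 4.21%. The larger volume was higher in 48 of 147 pairs, or 32.7% (exact permutation p = 0.108, adjusted p = 0.540), so the lower median at 8 µl did not exceed the spread between caps. Wilson 95% intervals reached at most 0.297 percentage points to either side and cover counting error only.

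**Figure D1:**
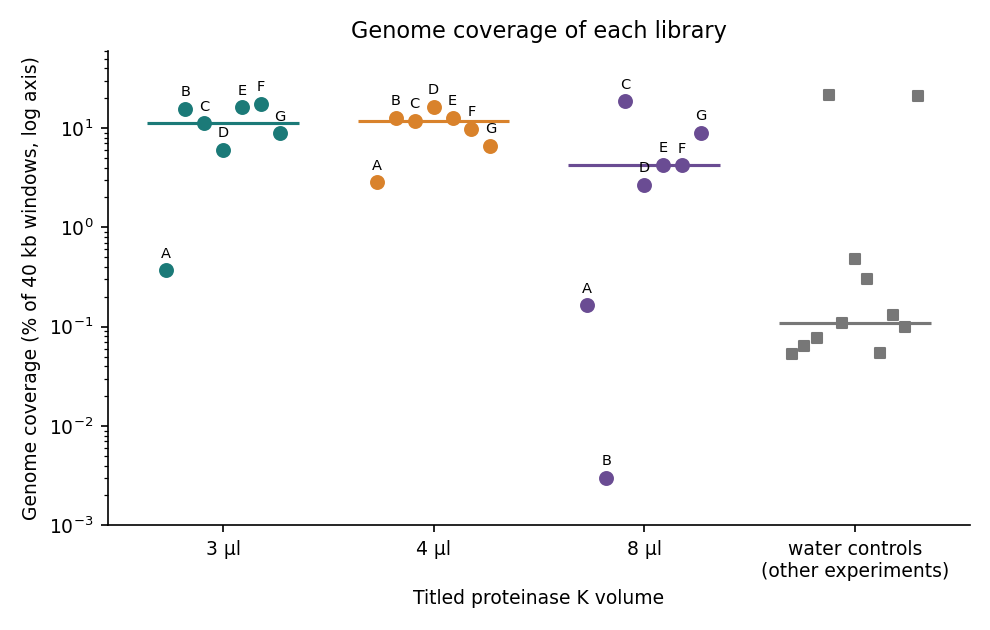
Genome coverage of each library on a log axis (percent of 40 kb windows of chromosomes 1 to 19 and X), with points lettered by plate row for the 3 proteinase K volumes and squares for the 11 water controls of other experiments. Lines are medians. All 3 volumes have libraries between 2.85% and 16.3%, and the libraries of row A at 3 and 8 µl and of row B at 8 µl, at 0.371%, 0.164% and 0.00303%, lie at or below the level of the 9 low water controls.

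The libraries in row A stood apart from the others. Replicate 1, which lay in row A at each volume, was the lowest library at 3 µl and at 4 µl and the next to lowest at 8 µl, where replicate 2 in row B had 2 called windows. These 2 windows and the 108 of 8 µl replicate 1 put both libraries within the range of, or below, the 9 low water controls. So did the 245 called windows of 3 µl replicate 1. The row A library of the 1 µl csc group on the same plate was also the lowest of its 7, at 5.48% against 6.20% to 14.7%. With row A left out at every volume, the larger volume was higher in 29.6% of pairs for coverage (two-sided exact permutation p = 0.0820, adjusted p = 0.410). The part of the row in the results was not tested beyond this and the block fit. The 21 libraries had a median coverage of 9.0%, against 2.05% in the 165 other 4NP libraries of the table, which differ in stain, reagents and protocol. The distance of a library from the median of its volume, on the scale of log10 of the called windows plus 1, had medians of 0.159 at 3 µl, 0.0769 at 4 µl and 0.330 at 8 µl, with the larger volume higher in 55.4% of pairs (two-sided exact permutation p = 0.618, adjusted p = 0.853), or 45.2% with the plate row as a block.

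Calls came in runs at all 3 volumes. The mean length of an unbroken run was 79.7 kb ± 19.4 at 3 µl (SD, n = 7), 88.7 kb ± 15.9 at 4 µl (SD, n = 7) and 67.2 kb ± 19.7 at 8 µl (SD, n = 6, without replicate 2). Calls scattered at the same coverage would give between 40.1 and 49.1 kb in these 20 libraries. At 3 µl the runs ranged from 41.9 kb to 100 kb with a median of 84.7 kb, at 4 µl from 55.9 kb to 104 kb with a median of 96.2 kb, and at 8 µl from 41.1 kb to 88.0 kb with a median of 67.7 kb. The shortest runs at 3 and 8 µl, of 41.9 and 41.1 kb, were those of replicate 1 and lay 1.04 and 1.03 times the scattered length. Longer runs at the larger volume were seen in 52 of 133 pairs, or 39.1% (exact permutation p = 0.338, adjusted p = 0.844). Within plate rows, the 8 µl library had the shortest mean run of the 3 volumes in 6 of the 6 rows measured, and with the row as a block the larger volume was higher in 21.1% of pairs (two-sided exact permutation p = 0.0339, adjusted p = 0.185).

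A library pools 4 profiles and a run ends at any missed window, so a run cannot be assigned to 1 slice. The longest of the titration was in 3 µl replicate 6, on chromosome 18, with 44 windows in a row and 1.76 Mb over 13 protein-coding genes. Replicate 5 at 4 µl followed with 1.64 Mb on chromosome 9 at 20160001 to 21800000, a stretch of 56 protein-coding genes that includes Dnmt1, the maintenance DNA methyltransferase, and Smarca4, an ATPase of the BAF chromatin remodelling complex. The same volume gave 1.56 Mb on chromosome 8 at 97840001 to 99400000 in replicate 4, over Cnot1, Ndrg4 and Got2, and 1.40 Mb on chromosome 10 at 3240001 to 4640000 in replicate 3, over the opioid receptor gene Oprm1. Replicate 5 at 3 µl held a pair of runs of 1.20 Mb, on chromosome 1 at 20120001 to 21320000 and on chromosome 9 at 58360001 to 59560000. At 8 µl the longest run was 1.28 Mb on chromosome 6 at 41640001 to 42920000 in replicate 3, over clusters of bitter taste receptor (Tas2r) and olfactory receptor (Olfr) genes. At the same volume, replicate 7 had 1.16 Mb on chromosome 5 at 35080001 to 36240000, over Htt.

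Gaps inside runs were measured by the single-gap fill, the percent of windows called among those whose left and right neighbours were both called. Such a window may lie in DNA that a slice contained, or between stray calls. The fill was 66.4% ± 5.89 at 3 µl (SD, n = 6), 66.3% ± 9.12 at 4 µl (SD, n = 7) and 53.2% ± 16.5 at 8 µl (SD, n = 5). Libraries with fewer than 20 such windows were left out: replicate 1 at 3 µl, with 0 of 18 called, and replicates 1 and 2 at 8 µl, with 0 of 4 and no such window. Values ran from 55.3% to 72.3% at 3 µl, from 46.7% to 72.7% at 4 µl and from 32.7% to 68.4% at 8 µl. The 8 µl group was split: replicates 3, 5 and 7 had 64.8%, 68.4% and 62.0%, inside the range of the smaller volumes, and replicates 4 and 6 had 38.1% (Wilson 95% interval 33.6% to 42.8%) and 32.7% (29% to 36.6%), below all other libraries measured. Replicate 5, with 68.4%, and replicate 6 had nearly the same coverage, 4.26% and 4.21%. The larger volume was higher in 36 of 107 pairs, or 33.6% (exact permutation p = 0.171, adjusted p = 0.570). Within plate rows, the 8 µl library had the lowest fill in 5 of the 5 rows measured at all 3 volumes, and with the row as a block the larger volume was higher in 18.8% of pairs (two-sided exact permutation p = 0.0369, adjusted p = 0.185). The coverage of the 8 µl library was the lowest of the 3 in 5 of 7 rows.

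The share of called windows with a called direct neighbour, minus the share that scattered calls would give, is the neighbour excess. It was 67.2 percentage points in 8 µl replicate 5, the highest of the 21, and 34.9 in replicate 6. The excess did not split the libraries as the fill did. In 8 µl replicates 4 and 3, with fills of 38.1% and 64.8%, it was 41.4 and 42.6. In 3 µl replicate 6, with a fill of 68.2%, it was 33.4. The share before subtraction did split the 8 µl libraries as the fill did. It was 46.7% and 43.2% in replicates 4 and 6, against 76.3%, 75.5% and 72.3% in replicates 3, 5 and 7. In 3 µl replicate 6 it was 65.4%. The scattered share taken off was 5.27% in 8 µl replicate 4 and 33.7% in replicate 3, whose coverage was 2.67% and 18.6%. Over the ordered volumes the excess was higher at the larger volume in 65 of 147 pairs, or 44.2% (exact permutation p = 0.612, adjusted p = 0.853). Single windows without a called neighbour made up 75.8% of the runs in 8 µl replicate 6, 74.0% in replicate 4 and 52.2% in replicate 5. At 4 µl they were 76.3% of the runs in replicate 1 and at most 52.4% in the other 6 libraries.

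**Figure D2:**
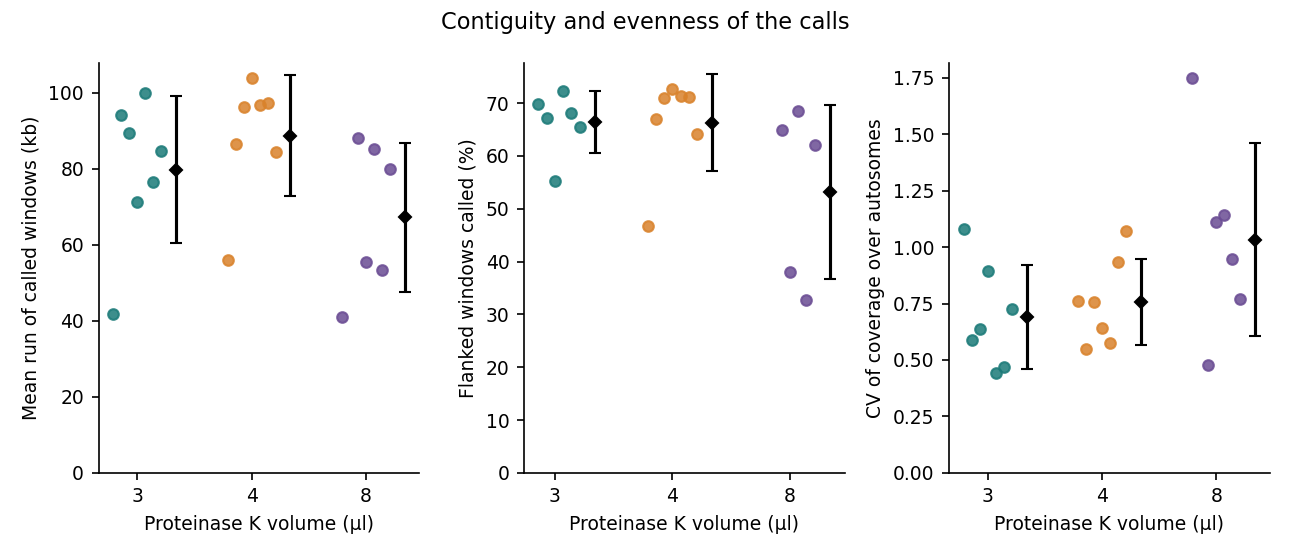
Mean run of called windows in kb (left), percent of windows called between called neighbours (middle) and coefficient of variation of coverage over chromosomes 1 to 19 (right), against the proteinase K volume in µl. Circles are libraries and diamonds with bars are the mean ± SD; libraries under the minimum number of windows are left out. In the middle panel 3 of the 5 libraries at 8 µl sit between 62.0% and 68.4% and the other 2 at 38.1% and 32.7%.

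Calls around a called window were in excess well beyond direct neighbours. The co-call excess is the percent of windows at a given distance from a called window that were called too, minus the coverage of the library. That coverage is taken over all chromosomes, so uneven coverage between chromosomes adds to the excess at any distance. This part was not separated from linkage by distance, also not at 10 Mb and beyond. At 40 kb it was 35.1 ± 14.6 percentage points at 3 µl (SD, n = 7), 42.8 ± 7.94 at 4 µl (SD, n = 7) and 29.1 ± 16.5 at 8 µl (SD, n = 6). At 1 Mb it was 14.5 ± 6.62, 17.8 ± 5.48 and 12.6 ± 7.52, with the larger volume higher in 66 of 133 pairs, or 49.6% (exact permutation p = 1.00, adjusted p = 1.00). At 10 Mb the excess was 4.52, 6.96 and 4.11 percentage points. The mean at 4 µl was above that at 3 µl and 8 µl at every one of the 8 distances, within 1 SD of both at 1 Mb. The lowest values at 1 Mb were 0.0385 in 3 µl replicate 1, -0.164 in 8 µl replicate 1 and 6.40 in 4 µl replicate 1, the 3 libraries of row A. The highest were 22.4 and 21.3, in 4 µl replicates 7 and 6, which had coverage of 6.63% and 9.87%.

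**Figure D3:**
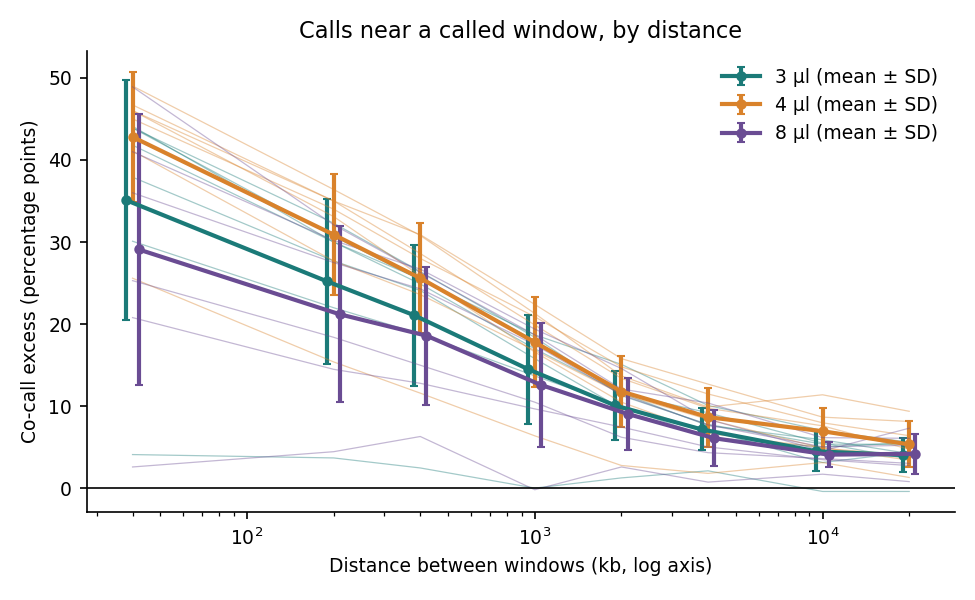
Co-call excess in percentage points against the distance between windows in kb on a log axis. Thick lines with bars are the mean ± SD per volume and thin lines are single libraries. All 3 means fall from between 29.1 and 42.8 at 40 kb to between 4.06 and 5.36 at 20 Mb, and the 2 lowest lines, which reach 0.0385 and -0.164 at 1 Mb, are replicate 1 at 3 µl and at 8 µl.

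Chromosomes were caught unevenly. In the nucleus each chromosome fills a territory of its own, and a thin slice crosses some territories and misses others. The coefficient of variation (CV) of coverage over chromosomes 1 to 19 was 0.691 ± 0.230 at 3 µl (SD, n = 7), 0.755 ± 0.191 at 4 µl (SD, n = 7) and 1.03 ± 0.429 at 8 µl (SD, n = 6). It ranged from 0.442 to 1.08 at 3 µl, from 0.549 to 1.07 at 4 µl and from 0.478 to 1.75 at 8 µl, and the groups overlapped. The larger volume was higher in 96 of 133 pairs, or 72.2%. This was the only trend with an unadjusted p below 0.05 (exact permutation p = 0.0431), and it did not pass after adjustment (adjusted p = 0.431). Within plate rows the larger volume was higher in 68.4% of pairs (two-sided exact permutation p = 0.212), and without windows called in a water control in 66.4% (p = 0.157). Leaving those windows out removed 38.3% of all windows. The CV was 1.08 and 1.75 in replicate 1 at 3 µl and 8 µl, the measured libraries with the fewest calls, and 0.478 in 8 µl replicate 3, the library with the most. Other libraries did not keep that order: 4 µl replicate 1, with a coverage of 2.85%, had 0.759, and 4 µl replicate 7, with 6.63%, had 1.07. The part of coverage in the CV was not tested.

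Chromosomes nearly missing from a library were counted without a test. Of 140 chromosome and library combinations per volume, 24 had coverage below 0.5% at 3 µl, 16 at 4 µl and 56 at 8 µl. Of the 24 at 3 µl, replicate 1 held 16, and replicates 1 and 2 at 8 µl held 18 and 20 of the 56. Libraries with a total coverage under 0.5% meet this limit almost by construction. By this measure the median library nearly lacked 1 chromosome at 3 µl, 2 at 4 µl and 5 at 8 µl. Chromosome 8 was below 0.5% in 9 of the 21 libraries and chromosome 6 in 2. Replicate 5 at 8 µl, with 8 chromosomes below 0.5%, had 17.4% of chromosome 13 called, and 4 µl replicate 7, with 7 such chromosomes, had 26.2% of chromosome 14.

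Chromosome 15 had the highest mean coverage at 3 µl, 16.7%, chromosome 12 at 4 µl, 17.6%, and chromosome 4 at 8 µl, 9.99%. Chromosome 15 ran from 0.193% to 33.7% over the 3 µl libraries. Chromosome 12 had 45.8% in 4 µl replicate 4, the highest value of any chromosome in the titration, and chromosome 4 had 36.6% in 8 µl replicate 3. These ranks rested on single libraries. Without 4 µl replicate 4, chromosome 12 had a mean of 12.8% and chromosome 1 was highest with 15.8%, and without 8 µl replicate 3, chromosome 4 had 5.56% and chromosome 13 was highest with 6.25%. At 8 µl chromosome 13 was also highest without replicate 6, and at 3 µl chromosome 15 lost its place without replicate 2, 6 or 7. The lowest means were those of the X at 3 µl, 6.30%, chromosome 13 at 4 µl, 5.63%, and the X at 8 µl, 2.72%. Tested one by one, 0 of the 20 chromosomes had an adjusted p below 0.05, and 2 had an unadjusted p below it: chromosome 19 (exact permutation p = 0.0177) and chromosome 3 (p = 0.0255), both with adjusted p = 0.255. Chromosome 19 had means of 12.4%, 9.13% and 3.92% at 3, 4 and 8 µl, and chromosome 3 had 10.2%, 6.70% and 3.05%. Without 8 µl replicate 3 the 8 µl means were 2.71% for chromosome 19 and 0.468% for chromosome 3.

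**Figure D4:**
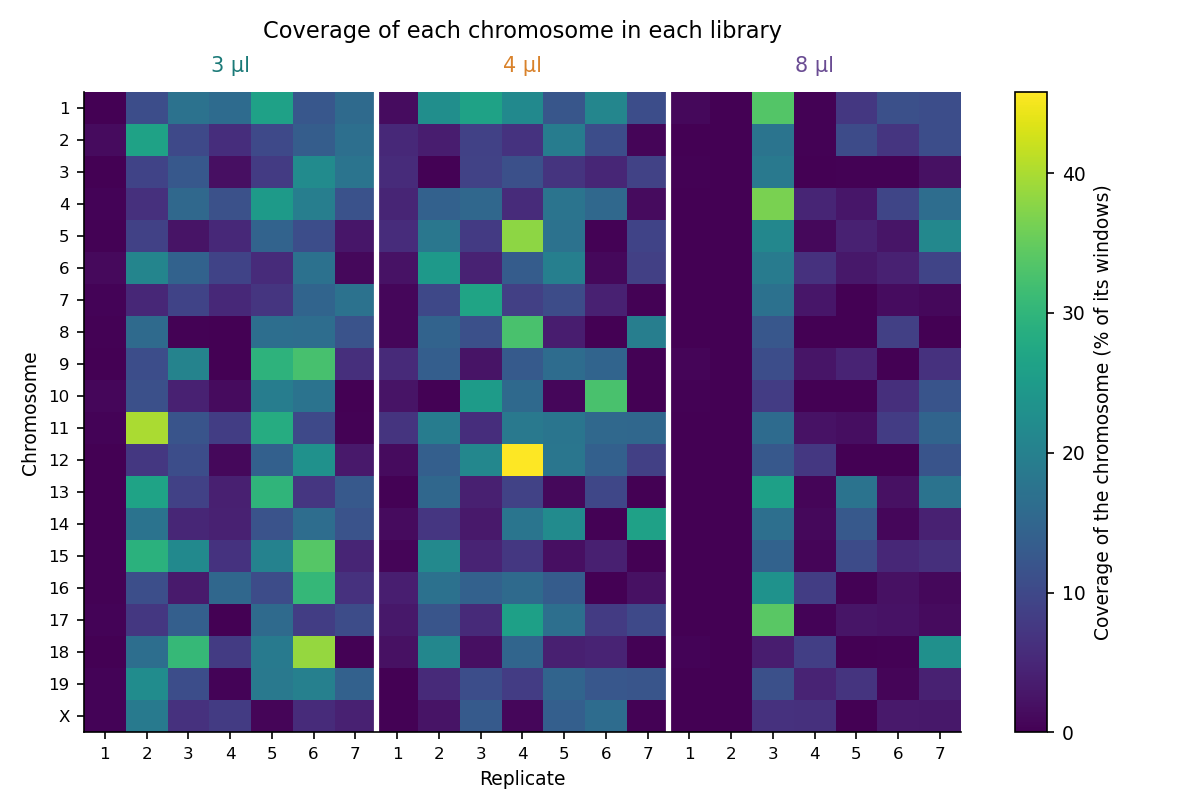
Coverage of each chromosome (rows) in each library (columns, by volume and replicate), as the percent of the windows of that chromosome that were called. Each library has its own set of covered chromosomes; the brightest cell is chromosome 12 in 4 µl replicate 4 at 45.8%, and the dark columns are replicate 1 at 3 µl and replicates 1 and 2 at 8 µl.

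The line is male, so each nucleus has a single X beside a pair of each autosome. The ratio of X to autosomal coverage ranged from 0.0350 to 1.34 at 3 µl, from 0.0374 to 1.72 at 4 µl and from 0 to 2.58 at 8 µl, where 8 µl replicate 1 had 0 of 4167 X windows called, which allows a share of up to 0.0720% for counting error alone, with linked windows taken as independent. The medians were 0.565, 0.185 and 0.325. Replicates on both sides of 1 were found at every volume, and the larger volume was higher in 41.4% of pairs (two-sided exact permutation p = 0.452, adjusted p = 0.853).

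The composition of the called windows differed by less than the spread between caps. Their mean GC content was 42.4% ± 0.650 at 3 µl, 42.4% ± 0.623 at 4 µl (SD, n = 7 each) and 42.2% ± 0.353 at 8 µl (SD, n = 6), against 41.8% over all windows. The larger volume was higher in 51.1% of pairs (two-sided exact permutation p = 0.946, adjusted p = 1.00), or 36.8% with the plate row as a block. The share of called windows that overlap a protein-coding gene was 59.7% ± 5.39, 58.6% ± 4.43 and 58.5% ± 2.47, against 53.1% of all windows, and the larger volume was higher in 45.1% of pairs (two-sided exact permutation p = 0.683, adjusted p = 0.853). Windows that are undetermined over most of their length can hardly be called, and without them the share over the genome was 54.7%. Of the 20 libraries with at least 100 calls, 18 lay above 54.7%, 3 µl replicate 2 had 54.7% and 4 µl replicate 6 had 54.3%. The libraries of row A at 3 and 4 µl again stood apart, with 71.4% and 67.9% of their windows over a gene and a GC content of 43.7% and 43.6%.

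**Figure D5:**
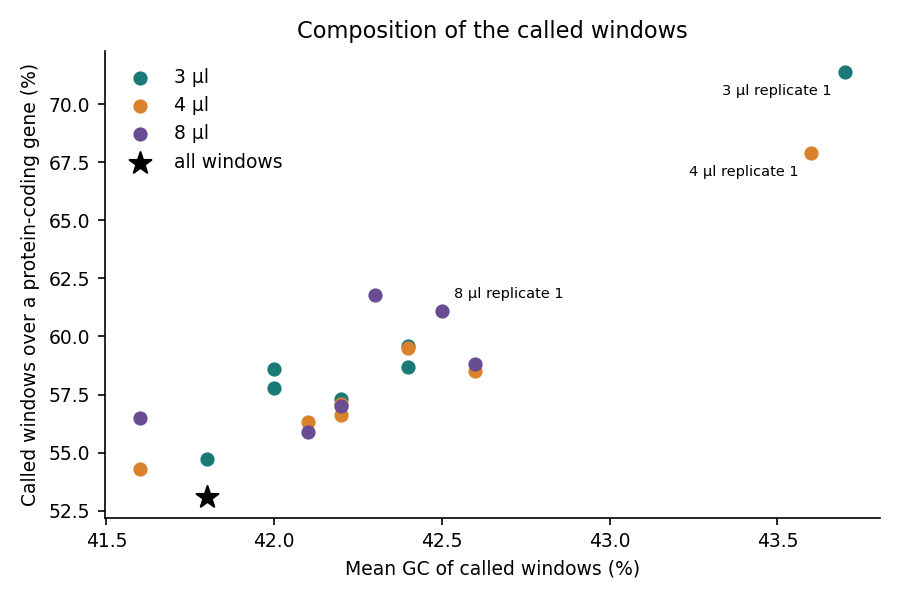
Percent of called windows that overlap a protein-coding gene against their mean GC content in percent, 1 point per library with at least 100 calls, coloured by proteinase K volume. The star marks all windows (41.8% GC, 53.1% over a gene), and replicate 1 at 3 µl and at 4 µl lie far up to the right at 71.4% and 67.9%.

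Each cap sampled a different part of the genome. Over the 7 libraries of a volume, 36169 windows (54.8%) were called at least once at 3 µl, 34632 (52.5%) at 4 µl and 22085 (33.5%) at 8 µl. Without replicate 3 the share at 8 µl was 18.7%, while leaving out any 1 library gave at least 45.8% at 3 µl and 44.3% at 4 µl. Windows called in at least 2 of the 7 were 17.5%, 16.5% and 4.97% of the genome, and windows called in all 7 numbered 4, 6 and 0. Together the 21 libraries reached 54579 windows (82.7%), and 7538 (11.4%) were called at all 3 volumes. The 11404 windows called in none had a mean of 17.8% undetermined bases in the assembly, against 0.0879% in the rest. A median window was called in 2 of the 21 libraries. The phi coefficient between the calls of 2 libraries ran from -0.0252 to 0.0680 over the 190 pairs of the 20 libraries with at least 100 calls, so no pair repeated the same calls.

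To see where in the genome coverage moved with the volume, the trend test was run on 527 blocks of 5 Mb. After adjustment over all blocks 0 passed in either direction (0% of blocks, smallest adjusted p = 0.321). At an unadjusted p below 0.05 there were 43 blocks that were lower at the larger volume, 8.16% of those tested, and 0 that were higher. With the plate row as a block the count was 21. Leaving out 1 library at a time moved this count between 22, without 8 µl replicate 2, and 81, without 3 µl replicate 1. In 496 of the 527 blocks the larger volume was lower in most pairs, and in 31 it was higher, with a median of 40.1% of pairs. These blocks share the 21 libraries and their coverage, so they are not independent. When each block was set relative to the coverage of its library, 23 blocks had an unadjusted p below 0.05, of which 22 were lower, and again 0 passed after adjustment. As shares of the 527 blocks, this count and the 21 with the row block lie below 0.05, the rate of the threshold itself.

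The block with the smallest p lay on chromosome 9 at 35000001 to 40000000, with 146 protein-coding genes. Many of them are olfactory receptor genes of the Olfr family, and the block also holds Chek1, a kinase of the DNA damage checkpoint, and Cdon, a co-receptor of hedgehog signalling. Its coverage at 3 µl was 0%, 16.8%, 29.6%, 0.800%, 20.8%, 47.2% and 1.60% in replicates 1 to 7, at 4 µl it ran from 0.800% to 8.00%, and at 8 µl from 0% to 0.800%. The 3 µl libraries were split, with 4 above every library of the other volumes and 3 among them (means 16.7%, 2.17% and 0.343%, exact permutation p = 0.00121, adjusted p = 0.321). The 4 µl mean was 1.20% without replicate 5. The next block, on chromosome 9 at 5000001 to 10000000, holds a cluster of matrix metalloproteinase genes (Mmp), the apoptosis inhibitors Birc2 and Birc3, the Hippo pathway coactivator Yap1 and the progesterone receptor gene Pgr among its 33 protein-coding genes. There the coverage at 3 µl was 0%, 16.8%, 30.4%, 0%, 24.8%, 20.0% and 2.40%, and at 4 µl it was 10.4%, 7.20%, 0%, 14.4%, 16.8%, 0.800% and 1.60%. At 8 µl 0 of 875 window calls over the 7 libraries were positive, which for counting error alone allows a share of up to 0.343%, although neighbouring windows are linked and the caps number 7 (means 13.5%, 7.31% and 0%, exact permutation p = 0.00122, adjusted p = 0.321). A library at 0% was found at each of the 3 volumes, and the 3 highest values were at 3 µl.

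A further block lay on chromosome 16 at 25000001 to 30000000, with 18 protein-coding genes, among them Trp63, a regulator of epithelial stem cells, Opa1, a fusion factor of the inner mitochondrial membrane, and the tight junction gene Cldn1. Means were 15.2%, 8.11% and 1.26% (exact permutation p = 0.00526, adjusted p = 0.560), with 5.07% at 4 µl without replicate 2 and 0.533% at 8 µl without replicate 3. The 3 µl libraries ran from 0% to 36.8%, the 4 µl libraries from 0% to 26.4% and the 8 µl libraries from 0% to 5.60%, so the highest 8 µl library lay below 6 of the 7 libraries at 3 µl. The call on the first 2 of these blocks depended on 1 library: without 3 µl replicate 1 both passed, with adjusted p = 0.0257 and 0.0406. With plate row A left out at every volume, 0 blocks passed (exact permutation, smallest adjusted p = 0.114).

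Genes were read at the 40 kb window that holds their start, for lists of pluripotency regulators, lineage regulators and housekeeping genes, 35 of whose 36 members were matched in the GENCODE M1 annotation (Tfcp2l1 under its older symbol Tcfcp2l1). A window was called or not in each library, so these are counts of libraries and not levels of expression. The median gene was called in 2 of the 21 libraries in each list, the same as the median of all windows and of the 15883 windows with the start of a protein-coding gene. Among the 12 pluripotency genes the count ran from 1 to 4. Prdm14, a repressor that guards the naive state, and Dppa3, a maternal factor that protects DNA methylation in the zygote, were called most, each in 1 library at 3 µl, 3 at 4 µl and 0 at 8 µl. Esrrb, a nuclear receptor of the naive network, was called in 2, both at 4 µl, a count that 6 genes of the list shared. Pou5f1, which encodes Oct4, was called in 1 library at 3 µl, Tfcp2l1 in 1 at 4 µl and Sall4 in 1 at 8 µl. A count of 1 was shared by 4 genes of the list.

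The 11 lineage genes matched had counts from 0 to 3. Pax6, an eye and forebrain regulator, was called in 1 library at each volume, Neurog2, a proneural factor, in 1 at 3 µl and 2 at 4 µl, and Cdx2, a trophectoderm regulator, in 2 at 4 µl, a count shared by 6 genes of the list, among them Sox17 with both calls at 8 µl. Gata4, a factor of endoderm and heart, was called in 0 of 21 libraries, which allows a share of up to 14.3%. Olig2, of motor neurons and oligodendrocytes, and T, the mesoderm factor brachyury, were each called in 1 library at 8 µl. Among the 12 housekeeping genes, Gapdh, of glycolysis, had the highest count, with 2, 2 and 1 libraries at 3, 4 and 8 µl. Tbp, the TATA box binding protein, was called in 1 at each volume, and Rpl13a, a ribosomal protein gene, in 1, 2 and 0. Actb, which encodes beta actin, was called in 1 library at 4 µl, a count shared by 3 genes of the list. The chaperone gene Hsp90ab1 and the X-linked glycolytic gene Pgk1 were called in 0.

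The 5 Mb blocks around these genes were mostly lower at the larger volume. The 12 pluripotency genes lay in 11 blocks, since Nanog and Dppa3 share one, and 11 of these 11 were lower, for lineage genes 8 of 11 and for housekeeping genes 10 of 12, against 496 of 527 over all blocks. These shares were not compared by a test. Unadjusted p was below 0.05 in 2, 1 and 1 of them, against 8.16% of all blocks, and 0 passed after adjustment (0% over all blocks). Around Pou5f1, on chromosome 17, block coverage had means of 12.1%, 9.71% and 6.29% at 3, 4 and 8 µl (exact permutation p = 0.0346, adjusted p = 0.575). The 8 µl mean came from replicate 3, with 43.2%, and was 0.133% without it, with 5 of the 7 libraries at 0%. The 4 µl mean was 4.40% without replicate 4, which had 41.6%. Around Rpl13a, on chromosome 7, the means were 10.2%, 19.2% and 0.914% (exact permutation p = 0.0316, adjusted p = 0.560), and the 4 µl mean was 12.1% without replicate 3, which had 61.6%. The 8 µl mean was 0.400% without replicate 6.

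The windows called in the most libraries were called at all 3 volumes. A window on chromosome 2 at 98480001 to 98520000, over Gm10800 and Gm10801, was called in 19 of the 21, missing only in replicates 1 and 2 at 8 µl. The window on chromosome 6 at 103560001 to 103600000, over Chl1, a neural cell adhesion gene, was called in 18 (7, 7 and 4 at 3, 4 and 8 µl). Next to each other on chromosome 11, the windows at 3040001 to 3080000 and 3080001 to 3120000, both over Sfi1, a centrin-binding protein gene, were called in 18 (6, 7 and 5) and 17 (7, 7 and 3). The window on chromosome 9 at 3000001 to 3040000, the start of the assembled sequence of that chromosome, was called in 17 (7, 6 and 4). All 5 were called in 2 of the 11 water controls and in between 41.2% and 72.7% of the 165 other 4NP libraries. They were missing mainly at 8 µl, where replicates 1 and 2 lacked all 5, and those libraries had 108 and 2 calls in all.

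The chromosome 9 window is shown because it was the 1 of these 5 whose sequence stood apart. Its most frequent 30-mer occurred 104 times, a number that any 30-mer reached in 0.155% of the 63918 windows with a determined sequence, where the median was 19. The most frequent 30-mers of the other 4 windows had from 7 to 22 copies, as many as at least 41.2% of all windows. Of the 103 spacings between copies on chromosome 9, 51 were of 234 bases. In mm9 no other 40 kb window of chromosomes 1 to 19 and X held a copy of this 30-mer on either strand, so windows with it are 0.00152% of all. The first unit of that spacing, on the plus strand at chr9:3000426-3000659, is printed with the 30-mer in capitals.
chr9 unit: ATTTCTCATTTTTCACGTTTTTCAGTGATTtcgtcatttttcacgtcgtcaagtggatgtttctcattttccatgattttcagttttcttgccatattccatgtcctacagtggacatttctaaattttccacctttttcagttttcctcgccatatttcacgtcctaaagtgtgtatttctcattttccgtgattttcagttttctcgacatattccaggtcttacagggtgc
In the chr9 unit, blocks such as tttctcatttt and ttcagttttc recur within the 234 bases. The calls cannot say from which copy of a repeat a read came.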

How the data were processed

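Per the labels, 46C mouse ES cell profiles were amplified with the WGA4 kit and sequenced. The authors aligned reads to mm9 with Bowtie2 (version 2.1 in the submitters' processing notes) and called windows with GAMtools, and the deposited values are binary calls for 40 kb windows (other than counts or signal), 1 where at least 4 reads fell, which keep no depth. The table held 68162 windows, and 65983 on chromosomes 1 to 19 and X were used. Window ends equalled the NCBIM37 lengths. Runs, GC, gene share, CV and X ratio needed at least 100 called windows, and single-gap fill at least 20 flanked windows. Windows undetermined over 50% of their length were left out of GC. Trends used exact permutation of the Jonckheere-Terpstra statistic, tested on simulated data. Blocks had at least 50 windows. Percentages are this work's, computed from the deposited calls with Python 3.11.15, numpy 2.4.6, pandas 2.3.3 and scipy 1.17.1.

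The members and gene lists were chosen with earlier results of these data known. Named were the 3 genes of each list called most and least (ties by symbol), the 5 windows called most, the 3 blocks with the smallest p, the 3 longest runs per volume (1 at 8 µl is not reported here) and the chromosomes with the highest and lowest mean. Other genes, blocks and libraries were named after their values were seen, as were the sequences. Alternatives were the plate row as a block, Pearson correlation with the volume, other minimums and block sizes, leaving out windows called in water controls (38.3% of all windows), and leaving out each library. Leaving out plate row A was added after seeing the data.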

Additional observations from a re-analysis of the deposited data

Results flagged for a closer look

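A library was singled out where its distance from the nearest other library of its volume was large for the range of the group (Dixon's test at the 95% level). Of 27 groups tested, 8 held such a library, and chance alone flags about 1 in 20. The flags fell on the few libraries named next and the measures are related, so the 27 groups are not independent tests. In 3 µl replicate 1, with 245 calls, the GC content of called windows was 43.7%, the gene share 71.4% and the co-call excess at 1 Mb 0.0385 percentage points. In 4 µl replicate 1, with 1879 calls, the mean run was 55.9 kb, the single-gap fill 46.7%, the gene share 67.9% and the co-call excess 6.40 percentage points. Both libraries lay in plate row A and were the lowest in coverage of their volume. In 8 µl replicate 4 the X to autosome ratio was 2.58, with 6.26% of X windows and 2.43% of autosomal windows called, while the other measured libraries at 8 µl ran from 0 to 0.746.

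Calls also lay outside the windows used for the comparisons. The window of the mitochondrial genome was called in 20 of the 21 libraries (95.2%), in all except 8 µl replicate 2, and in 5 of the 11 water controls (45.5%). On the Y chromosome, which has 398 windows in the table, 12 of the 21 libraries and 2 of the 11 water controls had a call. The most were 25 windows in 4 µl replicate 3, followed by 19 in 8 µl replicate 3, and these 2 libraries lay above the highest water control, with 11. At 3 µl 6 of 7 libraries had a Y call, at 4 µl 4 and at 8 µl 2, and this difference was not tested. Random and unplaced contigs, 1780 windows, had 0 calls in the 21 libraries and in the water controls.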

How the results depend on the processing

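Of 307 recomputed values, 282 kept their direction and their side of the threshold, 8 lay at exactly 50% of pairs and so had no direction, 16 changed direction and 1 count of blocks moved, and in 0 of the trend alternatives did an adjusted p fall below 0.05. The changes of direction were in GC, the spread of coverage and the co-call excess at 1 Mb, whose main values were 51.1, 55.4 and 49.6, and their cause was not tested. For GC the percent of pairs was 36.8 with the plate row as a block and 42 without windows called in water controls, and Pearson's r with the volume was -0.139. For the spread of coverage it was 45.2 with the row block and 39.8 on the percent scale. For the co-call excess at 1 Mb it was 51.0 without row A, 53.8 without windows called in water controls and 50.5 with a minimum of 500 calls. Leaving out 1 library gave 47.5 to 56.7 for GC, 45.0 to 55.5 for the co-call excess, 25.6 to 36.1 for coverage and 68.9 to 79.0 for the CV, whose smallest adjusted p was 0.0895. The number of 5 Mb blocks past the threshold ranged from 0 to 2: without 3 µl replicate 1, both named chromosome 9 blocks passed (adjusted p = 0.0257 and 0.0406). Without row A at any volume 0 passed (exact permutation, smallest adjusted p = 0.114). At an unadjusted p below 0.05 the count of blocks was 81 without 3 µl replicate 1 and 22 without 8 µl replicate 2.

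Replicates of the volumes share plate rows, but the labels do not say that a row marks a shared batch. Deviations of log10 calls from the volume means correlated with r = 0.828 between 3 and 4 µl, 0.218 between 3 and 8 µl and 0.146 between 4 and 8 µl, and on the percent scale with 0.468, 0.103 and 0.0784, each over 7 rows. All 3 were positive on both scales but smaller on the second, and 7 rows are few, so whether the rows pair the libraries was not settled. With the row as a replicate block, coverage was higher at the larger volume in 33.3% of pairs within rows (exact permutation p = 0.238, adjusted p = 0.583), the mean run length in 21.1% (p = 0.0339, adjusted p = 0.185) and the single-gap fill in 18.8% (p = 0.0369, adjusted p = 0.185). The CV was higher in 68.4% (p = 0.212, adjusted p = 0.583). With it 0 of the 527 blocks passed and 21 had an unadjusted p below 0.05. The number of caps, and for the fill the few flanked windows in thin libraries, limit the precision.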
